A study of Mus musculus with 39 samples.

Results

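The comparison described here sets 5 arrays of whole liver extract from mice given phenobarbital (PB) for 7 days against 5 arrays from control mice of the same day, 10 of the 39 arrays in the series. The groups were taken from the sample labels alone. The animals were male B6C3F1/Crl mice, a hybrid of C57BL/6 and C3H/He, that arrived aged 29 to 32 days and had 5 days to acclimatise. The PB group drank water with 0.05% (w/v) PB ad libitum, and no other agent or allele is named in either group. The other arrays came from the same kind of comparison after 1, 28 and 91 days, with 5 arrays in every group except the day 1 controls, which had 4. The submitters' treatment text names 28 days of PB and their extraction text names liver and kidney, so group, day and tissue follow each sample's own labels. Nothing in them states whether every array stands for a different mouse, and the p-values below therefore measure the spread between these arrays.

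PB is a barbiturate sedative and a non-genotoxic rodent liver carcinogen. In hepatocytes it leads the constitutive androstane receptor (CAR, gene Nr1i3) to move into the nucleus, where CAR with its partner RXR switches on genes of drug metabolism. The targets best known in mouse liver are cytochromes P450 of the 2b and 2c families, enzymes that oxidise foreign compounds, together with enzymes that attach glutathione, glucuronic acid or sulfate and pumps that export the products. PB also enlarges the liver, brings a short wave of hepatocyte division after the start of dosing, and alters sex-dependent and energy metabolism genes.

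All values are log2 intensities of a probe set as deposited, and differences are log2 values of PB minus control. Each gene was read from its brightest probe set that carries a single gene symbol. Limma fitted all 39 arrays with a mean for each group, and a gene was called when its p, adjusted by the Benjamini-Hochberg method over all 12580 tested genes, was under 0.05.

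Before any gene is read, the arrays themselves differed. The 18 bacterial hybridization control probe sets, which report RNA added in equal amounts to each hybridization, averaged 10.85 ± 0.09 on the PB arrays and 9.96 ± 0.29 on the control arrays (SD, n = 5 each). All 18 were higher on every PB array than on any control array, with differences between group means of 0.52 to 1.08. In an exact two-sided permutation test the difference of 0.89 in the mean gave p = 0.00794, the smallest that 5 arrays against 5 allow, and 0.0357 after adjustment over 18 array measures. The day 7 controls had the lowest mean of the 8 groups, whose other 7 means lay between 10.69 and 11.21. The 27 poly-A control probe sets, a second kind of control, averaged 5.85 on the PB arrays and 5.23 on the control arrays. That difference of 0.62 had an adjusted p of 0.0408 in the same permutation test. The array mean over all probe sets moved the other way by a small amount, 6.235 on the PB arrays and 6.260 on the control arrays. Its groups did not overlap (permutation p = 0.00794, adjusted p = 0.0357). A second fit therefore added the spike-in mean of each array as a covariate, and a further comparison set the PB arrays against the controls of days 1 and 28. Those controls are not better matched in every control probe set. Their spike-in means were 10.94 at day 1 and 11.21 at day 28. Their poly-A means, 7.18 and 7.63, lay above the PB arrays and further from them than the day 7 controls did. A value with no fit named beside it comes from the first fit, without the covariate.

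Single arrays also stood apart. PB array 3 had a neutrophil marker mean of 7.92, against 5.11 to 5.29 on the other PB arrays and 5.28 to 6.22 on the control arrays, and its Kupffer cell and lymphocyte marker means were the highest of the 10. PB arrays 2 and 4 had skeletal muscle marker means of 8.62 and 7.93, while the other 8 arrays lay between 5.25 and 5.48. Hepatocyte markers matched the labelled tissue on all 10 arrays, with means of 13.52 to 13.56 on PB arrays and 13.55 to 13.65 on control arrays. Kidney tubule markers averaged 5.46 to 5.65 on PB arrays and 5.43 to 5.58 on control arrays, and the defining genes Umod and Slc12a1 lay in the lowest quartile of probe sets on all of them.

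**Figure D1:**
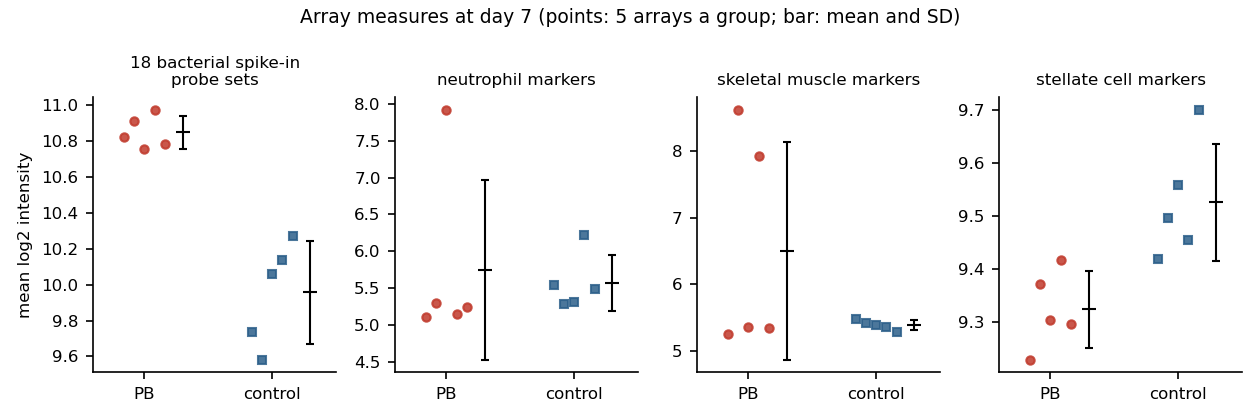
Mean log2 intensity of 4 sets of probe sets on each day 7 array, PB left and control right, with the group mean and SD as bars. The spike-in means of the groups do not overlap, PB array 3 is high for neutrophil markers, and PB arrays 2 and 4 are high for skeletal muscle markers.

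After 7 days of PB 709 genes rose, which is 5.64% of the 12580 tested, and 1429 fell, which is 11.4%. The list counts below stand beside these shares. The rises were larger: 57 genes rose and 26 fell by at least 2-fold. All PB arrays lay above all day 7 controls for 454 genes (3.61%) and below them for 957 (7.61%). The largest rises and falls named below were chosen among such genes, so their lack of overlap is not a separate result. With each array centred on its median 931 genes rose and 879 fell, and after quantile normalization 892 rose and 1079 fell. The surplus of falls thus depended on the normalization. With the spike-in covariate 351 genes rose (2.79%) and 500 fell (3.97%), and the genes called in the same direction by both fits were 245 that rose (1.95%) and 273 that fell (2.17%). No gene was called in opposite directions. Of the genes that changed by more than the spike-in difference, 53 of 71 rises and 17 of 36 falls were called by both fits. Measured against the controls of days 1 and 28 instead, 471 of the 709 rises and 561 of the 1429 falls were called again, and 104 genes were called the other way. That comparison called many genes: 2406 of all 12580 tested genes rose and 3052 fell. The day 7 controls themselves differed from those earlier and later controls, with 3219 genes higher and 2445 lower in the day 7 controls. Genes called by the first fit, by the covariate fit and against the neighbouring controls came to 231 rises and 209 falls. The covariate fit draws its slope from all 39 arrays. Within the 10 day 7 arrays alone, where the spike-in mean and the treatment go together, 498 genes rose and 1084 fell without the covariate, and 10 rose and 1 fell with it, although 1593 genes had an unadjusted p under 0.05. Those 11 genes were Cyp2b10, Cyp2c55, Cyp2c29, Gstt3, Gstm3, Ugt2b34, Ces2a, Abcc3, Cnmd and 1700067K01Rik, which were higher, and Dnaic1, which was lower.

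**Figure D2:**
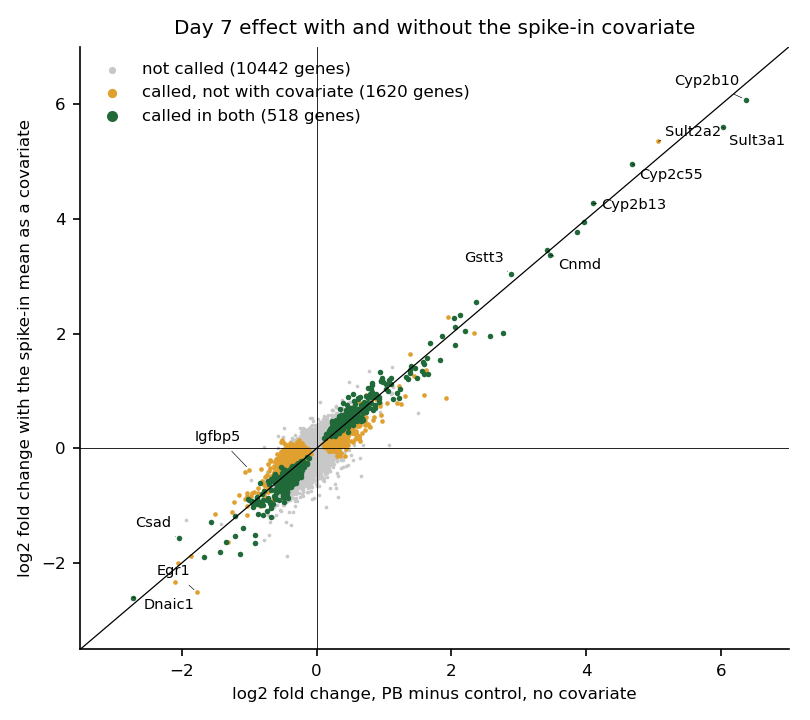
Log2 difference between PB and control arrays at day 7 for each tested gene, without (x) and with (y) the spike-in mean as a covariate, coloured by whether the gene was called. Of the called genes 518 were called in both fits, Cyp2b10 and Dnaic1 at the ends among them, and 1620 only without the covariate, among them Sult2a2 (5.07).

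The largest rise was that of Cyp2b10, the P450 by which CAR activity is usually read. It had 13.72, 13.84, 13.81, 13.91 and 13.92 on the PB arrays, against 7.64, 7.92, 7.43, 7.26 and 7.15 on the control arrays, an 82.2-fold difference (6.36 ± 0.21 SE, limma adjusted p = 7.82e-23; 6.08 with the covariate). The PB arrays lay closer to each other than the controls did, and the groups were far apart. Cyp2c55, a P450 that oxidises arachidonic acid, had 13.44, 13.53, 13.46, 13.76 and 13.82 on the PB arrays and 9.25, 9.70, 8.62, 8.39 and 8.65 on the control arrays, with no overlap. It rose by 4.68 ± 0.22 (adjusted p = 4.36e-18), and by 3.87 against the controls of days 1 and 28.

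Across the phase I enzymes of the CAR response, most of them P450s, 19 of 26 tested members rose and none fell, with a median difference of 0.50 against -0.05 over all tested genes. With the covariate 16 rose, and the median was again 0.50. The array means of the list were 11.81 to 12.13 with PB and 10.72 to 10.81 in controls. Cyp2c54 and Cyp2c50, also of the 2c family, rose by 1.38 (adjusted p = 5.25e-15) and 0.78 (adjusted p = 9.41e-15). Cyp2c29 rose by 0.71 to 14.51 ± 0.03 on PB arrays, against 13.80 ± 0.17 on control arrays, and was singled out after its values were seen. Cyp3a11, the main mouse 3a enzyme and a target of the pregnane X receptor, had 14.61, 14.58, 14.59, 14.66 and 14.67 with PB and 14.31, 14.22, 14.32, 14.25 and 14.15 in controls. That rise of 0.37 was small beside those of Cyp2b10 and Cyp2c55 but larger than the spread of either group (adjusted p = 2.83e-10). It shrank against the controls of days 1 and 28 to 0.12 for Cyp3a11 and to 0.38 for Cyp2c29. These probe sets lie near the top of the intensity range of the arrays. Several P450s have close paralogs, and a probe set can read more than its named gene.

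A pair of enzymes of this list had wide spreads with PB. Cyp2c65 had 9.53, 8.75, 6.04, 6.92 and 7.43 on the PB arrays and 3.67 to 4.14 on the control arrays, a rise of 3.86. Cyp2b13, a P450 that is female-predominant in mouse liver, had 7.87, 8.78, 10.45, 12.34 and 11.21 on the PB arrays and 5.62 to 6.64 on the control arrays, a rise of 4.09. Both were chosen among genes without overlap, and PB arrays 1 and 2 were the highest for Cyp2c65 and the lowest for Cyp2b13.

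Among other oxidising and hydrolysing enzymes 10 of 24 rose and 2 fell (median 0.26), and 7 rose and none fell with the covariate. Ces2a, a carboxylesterase that splits ester drugs and lipids, had 13.36, 13.55, 13.71, 13.69 and 13.61 with PB and 12.33, 12.03, 11.94, 11.89 and 11.34 in controls. It rose 3.19-fold (1.68 ± 0.11, adjusted p = 2.03e-13; 1.83 with the covariate). The aldehyde dehydrogenases Aldh1a1 and Aldh1a7 rose by 0.46 and 0.56, both also called with the covariate. Ces1g, a carboxylesterase of lipid turnover, rose by 0.59 and was not called with the covariate (adjusted p = 0.233).

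Genes that make heme and pass electrons to P450 moved little as a group: 3 of 14 rose and 1 fell (median -0.01). Alas1, the rate-limiting enzyme of heme synthesis, had 11.37, 10.84, 11.72, 11.49 and 12.03 with PB, against 9.56, 9.74, 9.89, 10.88 and 10.45 in controls. The groups overlapped slightly, since PB array 2 lay below control array 4. The rise of 1.39 ± 0.43 passed the first fit (adjusted p = 0.0216) and not the covariate fit (adjusted p = 0.0994). Cyb5a, the cytochrome b5 that donates electrons to P450, rose by 0.26 in both fits. Cpox, a later enzyme of heme synthesis, fell by 0.47.

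Enzymes that attach glutathione rose together, 12 of 19 with a median of 0.36 and none lower, and 11 with the covariate. The called rises ran from 0.14 to 2.88. Gstt3, of the theta class, had 11.59, 11.83, 11.89, 12.42 and 12.36 with PB and 9.35, 9.08, 9.53, 8.93 and 8.78 in controls, a 7.37-fold difference with no overlap (adjusted p = 1.15e-13). Gstm3, of the mu class, reached 13.74 ± 0.21 with PB, against 11.61 ± 0.06 in controls (2.13, adjusted p = 2.54e-14), and its other probe set read 2.95. Gsta2, an alpha enzyme also induced by NRF2, had 11.27, 11.36, 10.64, 11.80 and 11.31 with PB and 9.45, 9.68, 9.49, 8.89 and 8.61 in controls. Its rise of 2.05 over the day 7 controls shrank to 0.66 against the controls of days 1 and 28.

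Glucuronidation genes rose in 7 of 13 cases, with none lower and a median of 0.23, and 6 rose with the covariate. Ugt2b34, a UDP-glucuronosyltransferase, had 13.54, 13.47, 13.53, 13.67 and 13.73 with PB and 12.77, 12.97, 12.78, 12.73 and 12.69 in controls (0.80 ± 0.06, adjusted p = 4.26e-12). Ugt2b35, of the same family, rose by 0.76. Ugdh, which makes the UDP-glucuronic acid these enzymes use, rose by 0.86 to 11.99 ± 0.11 with PB, against 11.13 ± 0.14 in controls. The 3 genes were called in both fits. Against the controls of days 1 and 28 the rise was 0.56 for Ugt2b34, 0.41 for Ugt2b35 and 0.24 for Ugdh, all called.

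Sulfotransferases and the enzymes that make their sulfate donor had 7 of 11 members higher and 1 lower, with a median of 0.85. With the covariate 4 rose and none fell. Sult1c2 was even within its groups, with 8.57, 8.64, 8.53, 8.66 and 8.73 under PB and 6.89, 6.84, 7.22, 6.59 and 7.32 in controls (1.66 ± 0.13, adjusted p = 1.14e-11). Sult1d1, which sulfates catecholamines, rose by 1.22, and Papss2, which makes the sulfate donor PAPS, rose by 0.85. Their rises over the controls of days 1 and 28 were 0.61 and 0.52. Sult3a1, an amine sulfotransferase that is female-predominant in mice, had 8.21, 9.72, 11.69, 11.76 and 11.91 with PB and 4.46, 3.66, 5.50, 4.31 and 5.26 in controls. PB arrays 1 and 2 lay well below the other PB arrays for it and still above every control. Sult1e1, the estrogen sulfotransferase, had 5.13, 4.74, 8.47, 8.21 and 6.56 with PB, against 4.56, 3.87, 4.20, 4.16 and 4.66 in controls. Its rise of 2.33 was not called with the covariate (adjusted p = 0.11).

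Hepatocyte transporters split, with 6 of 18 higher and 4 lower (median 0.02), and 2 higher and 3 lower with the covariate. Abcc3, a pump that exports conjugates into blood, had 11.62, 11.76, 11.67, 11.99 and 11.95 with PB and 10.27, 10.03, 9.56, 9.47 and 9.47 in controls, a 4.11-fold difference (adjusted p = 3.24e-10). Abcc4, a second pump to the blood side, rose by 1.83, with 6.36 on PB array 1 and 7.23 to 8.38 on the others. Abcc2, the pump into bile, had 10.93 ± 0.31 with PB and 9.98 ± 0.20 in controls. Its rise of 0.95 was not called with the covariate (adjusted p = 0.0635), and the difference from the controls of days 1 and 28 was 0.06. Slco1a4, an uptake carrier of bile acids and drugs, rose by 1.31 and likewise was not called with the covariate (adjusted p = 0.0943) or against the controls of days 1 and 28 (0.31).

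Among nuclear receptors and their partners 2 of 19 rose and 3 fell, beside 5.64% and 11.4% of all tested genes. Ahr, the dioxin receptor, rose by 0.76 (adjusted p = 0.000478), and Ppara, the fatty acid receptor, fell by 0.48, with 10.09 to 10.30 on PB arrays and 10.55 to 11.00 on control arrays. Nr1i3, which encodes CAR, had 9.19, 9.13, 8.87, 9.49 and 9.44 with PB, against 10.09, 9.95, 9.79, 9.58 and 9.68 in controls. It fell by 0.59 in the first fit and was not called with the covariate (adjusted p = 0.201), nor was Ahr (adjusted p = 0.196).

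**Figure D3:**
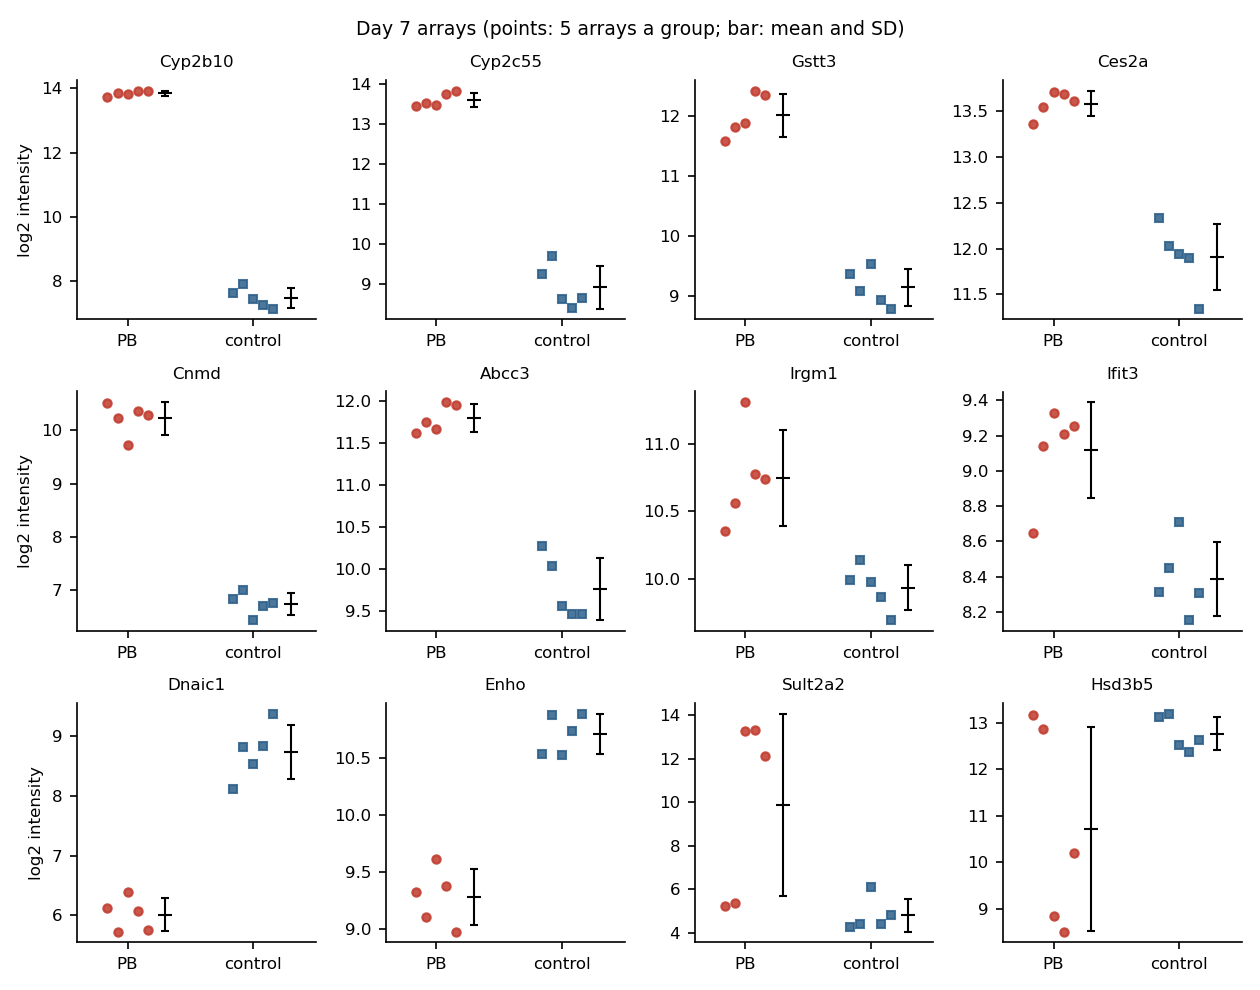
Log2 intensity of 12 genes on each day 7 array, PB left and control right, with the group mean and SD as bars. The groups lie apart for Cyp2b10, Cyp2c55, Gstt3, Ces2a, Cnmd, Abcc3, Irgm1, Dnaic1 and Enho, they overlap on 1 PB array for Ifit3, and for Sult2a2 and Hsd3b5 the 5 PB arrays fall far from each other.

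Outside drug metabolism, the largest rises belonged to genes with little known liver function. Cnmd encodes chondromodulin, a cartilage protein that restrains blood vessel growth. It had 10.50, 10.23, 9.71, 10.35 and 10.29 with PB, against 6.83, 7.01, 6.45, 6.71 and 6.77 in controls, an 11.0-fold difference (3.46 ± 0.16, adjusted p = 4.36e-18). The uncharacterised gene 1700067K01Rik had 8.92, 8.68, 9.0, 9.33 and 9.13 with PB and 5.55, 5.85, 5.53, 5.68 and 5.33 in controls (3.42 ± 0.17, adjusted p = 1.69e-17). Both were tight within their groups, and both kept their size with the covariate, at 3.38 and 3.46. Prom1, the surface protein CD133 used as a progenitor marker, rose by 2.76, with 9.09 to 10.51 on PB arrays and 5.90 to 7.86 on control arrays. Smpd3, a neutral sphingomyelinase that makes ceramide, rose by 2.37 to 7.98 ± 0.36 with PB, against 5.61 ± 0.40 in controls. 1810053B23Rik, a locus without known function, rose by 2.57 with a spread of 6.00 to 8.82 over the PB arrays. Pnliprp1, a pancreatic lipase relative, had 9.44 ± 0.62 with PB and 5.48 ± 0.41 in controls, and it belongs to a list of 7 tested exocrine pancreas markers of which 1 other was called, lower. The mean over the 13 list members with a probe set was 6.12 ± 0.06 with PB and 5.81 ± 0.09 in controls (SD, n = 5 each), with Pnliprp1 in it. Cpb1 and Reg1 lay in the lowest quartile of probe sets on all 10 arrays. The summed level of the list was 11.29 to 11.86 on PB arrays and 11.39 to 11.82 on control arrays, ranges that overlapped. The part of pancreatic RNA was not tested. Orm3, an acute phase orosomucoid, rose by 2.20, with 8.01 to 9.35 on PB arrays and 5.93 to 7.11 on control arrays. The acute phase and complement list as a whole had 3 of 22 higher and 4 lower, with Crp, C-reactive protein, up by 0.28 and Itih3, a hyaluronan-binding serum protein, down by 0.47.

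The largest falls called in both fits were smaller than the rises. Dnaic1, a dynein chain of motile cilia, had 6.12, 5.73, 6.39, 6.07 and 5.76 with PB and 8.11, 8.81, 8.53, 8.83 and 9.37 in controls, 6.58-fold lower (-2.72 ± 0.22, adjusted p = 2.87e-11). Csad, which makes the taurine precursor hypotaurine, had 7.63, 8.79, 8.52, 7.86 and 8.85 with PB and 10.49, 10.47, 10.67, 9.97 and 10.25 in controls. Enho, which encodes the secreted peptide adropin, had 9.32, 9.10, 9.61, 9.38 and 8.97 with PB, against 10.53, 10.88, 10.53, 10.74 and 10.89 in controls. These genes were chosen among those where no PB array reached the lowest control, and Enho fell 2.71-fold (adjusted p = 9.72e-05). Dnase2a, a lysosomal DNase, fell by 1.56, Serpina7, thyroxine-binding globulin, by 1.35, and Rdh16f2, a retinol dehydrogenase of the Rdh16 family, by 1.09. Foxa3, a forkhead factor of hepatocyte identity, fell 1.99-fold to 9.47 ± 0.17 with PB, against 10.46 ± 0.25 in controls. Nab2, a corepressor of EGR factors, fell by 0.96, Fam25c by 1.01, Atp4a, the gastric proton pump subunit, by 1.20, Tcim by 1.21 and Spata2l by 0.95. For Atp4a, Tcim and Spata2l the difference from the controls of days 1 and 28 was only -0.23, -0.33 and 0.17, and it was not called.

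Among genes whose groups did not overlap, the largest changes that the covariate fit did not call were often uneven between arrays. Egr1, an immediate early transcription factor, had 7.68, 7.50, 8.61, 8.98 and 8.88 with PB and 9.45, 10.17, 9.41, 11.28 and 10.19 in controls (-1.77, adjusted p = 0.0289; -2.51 and 0.0537 with the covariate). Hectd2os, a noncoding transcript named as antisense to Hectd2, had 7.15, 7.14, 4.82, 5.02 and 5.17 with PB and 7.61 to 7.98 in controls. Cyp26b1, which degrades retinoic acid, fell by 1.15, Ces4a and Serpina9 both fell by 1.06, and Igfbp5, an IGF-binding protein, fell by 1.00. Igfbp5 was higher, by 0.66, when the PB arrays were set against the controls of days 1 and 28. On the other side Cyp17a1, a steroid hydroxylase, had 7.45, 7.39, 7.98, 9.66 and 9.33 with PB and 6.82 to 7.14 in controls. Lratd1, Ces2b and Cyp3a44 rose by 1.26, 1.23 and 1.04.

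Interferon-response genes rose as a group by a modest amount: 16 of 33 tested members, none lower, with a median of 0.45, and 12 with the covariate (median 0.55). These genes are switched on by interferons through STAT factors and IRF9, which bind a repeated GAAA element in their promoters. PB array 3, the array with high neutrophil markers, had the highest list mean, 9.97, against 8.83 to 9.23 on the other PB arrays and 8.70 to 8.87 on the control arrays. Without it 14 members rose and 1 fell, with a median of 0.30. With both the covariate and array 3 left out 7 rose. Against the controls of days 1 and 28, 28 of 33 rose with a median of 0.80. The summed level of the neutrophil markers was 8.86 to 12.88 on PB arrays and 9.06 to 11.54 on control arrays, that of the Kupffer cell markers 13.75 to 14.998 and 13.92 to 14.29, and that of the lymphocyte markers 10.76 to 12.40 and 10.26 to 10.94. With all arrays and the day 7 controls, none of 5 neutrophil and 14 Kupffer cell markers and 1 of 7 lymphocyte markers was called. Without PB array 3, 3 neutrophil markers (median -1.10) and 3 Kupffer cell markers (median -0.22) fell, beside 1409 of all 12580 tested genes. Against the controls of days 1 and 28, 11 Kupffer cell markers (median 0.53) and 1 neutrophil marker (median 0.60) rose, beside 2406 of all tested genes. In the 10 day 7 arrays alone 9 members rose, and with the covariate none did, 5 having an unadjusted p under 0.05 in limma.

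The promoters of 3 called members show the element. In RefSeq promoters of build GRCm38.p6, 250 bases before to 50 after the gene start, the motif GAAANNGAAA was searched on both strands. It is shown in capitals (or as its reverse complement) in Irgm1 on the minus strand at chr11:48871371-48871670, Ifit3 on the plus strand at chr19:34583279-34583578 and Ifit1 on the plus strand at chr19:34640639-34640938, each read 5′ to 3′ along the gene.
Irgm1: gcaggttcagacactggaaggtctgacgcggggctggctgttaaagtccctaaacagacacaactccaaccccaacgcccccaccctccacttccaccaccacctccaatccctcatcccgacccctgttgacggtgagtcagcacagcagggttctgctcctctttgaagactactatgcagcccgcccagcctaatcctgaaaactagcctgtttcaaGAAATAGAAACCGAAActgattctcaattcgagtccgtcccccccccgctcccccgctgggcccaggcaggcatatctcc
Ifit3: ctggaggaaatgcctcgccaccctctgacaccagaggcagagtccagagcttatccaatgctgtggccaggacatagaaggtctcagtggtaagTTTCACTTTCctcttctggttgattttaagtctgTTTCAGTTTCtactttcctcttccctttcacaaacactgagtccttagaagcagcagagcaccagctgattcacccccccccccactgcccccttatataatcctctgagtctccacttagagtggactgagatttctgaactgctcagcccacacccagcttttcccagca
Ifit1: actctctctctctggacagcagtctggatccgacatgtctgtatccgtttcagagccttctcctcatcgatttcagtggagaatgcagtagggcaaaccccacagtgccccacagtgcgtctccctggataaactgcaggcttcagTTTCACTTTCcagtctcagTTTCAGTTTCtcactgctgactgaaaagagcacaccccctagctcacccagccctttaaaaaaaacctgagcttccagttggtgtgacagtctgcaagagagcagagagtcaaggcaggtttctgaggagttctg
Each window held 2 matches, which overlap in Irgm1. The motif was found in 3.99% of the 27025 genes with a promoter in the table and in 3.56% of the tested ones. Of the list members that rose, 8 of the 11 with a promoter in the table held it, and of those not called 6 of 14. A match is a run of letters and not a shown binding site.

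Irgm1, an immunity GTPase of the interferon gamma response, had 10.35, 10.56, 11.31, 10.77 and 10.74 with PB, against 9.99, 10.14, 9.98, 9.87 and 9.69 in controls (0.81 ± 0.12, adjusted p = 9.12e-06; 1.10 with the covariate). Ifit3, which blocks viral RNA, had 8.65, 9.14, 9.33, 9.21 and 9.26 with PB and 8.32, 8.45, 8.71, 8.15 and 8.31 in controls. PB array 1 fell inside the control range for Ifit3, whose difference was 0.73. Bst2, the tetherin that holds virions at the cell surface, rose by 0.45. Ifit1 and Cxcl10 were named after their values were seen: Ifit1 had 8.52 to 9.43 with PB and 7.66 to 8.45 in controls, and the chemokine Cxcl10 had 9.63 on PB array 3, 7.36 to 8.07 on the other PB arrays and 6.74 to 7.23 in controls.

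Proteasome subunits rose in 12 of 26 cases, none lower, by 0.13 to 0.47, with a median of 0.13. With the covariate 3 rose, and with the day 7 arrays alone 5. Psmc1, an ATPase of the regulatory particle, had 10.72, 10.64, 10.80, 10.83 and 10.75 with PB and 10.50, 10.53, 10.49, 10.52 and 10.52 in controls, a small difference of 0.24 between groups that did not overlap. It was not called with the covariate (adjusted p = 0.0898). Psmb3, a core subunit, rose by 0.29 in the first fit, and read 0.05 with the covariate (adjusted p = 0.722) and 0.04 against the controls of days 1 and 28. Psmd1, a scaffold of the regulatory particle, rose by 0.46 in the first fit, and read 0.30 with the covariate (adjusted p = 0.197) and -0.17 against the controls of days 1 and 28. Of ribosomal protein genes 4 of 21 fell and none rose without the covariate, and again 4 fell with it. Their median of -0.08 lay near the -0.05 of all tested genes, of which 11.4% fell. Rps19 fell by 0.21 and Rpl8 by 0.18, the second not with the covariate (adjusted p = 0.28).

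NRF2 antioxidant genes rose in 6 of 14 cases with a median of 0.21, and 1 of them rose with the covariate. Nqo1, a quinone reductase and standard NRF2 target, had 7.16, 7.41, 7.77, 7.82 and 7.80 with PB and 6.80, 6.74, 7.22, 7.02 and 7.15 in controls. Its rise of 0.60 overlapped on PB array 1 and was not called with the covariate (adjusted p = 0.178). Nfe2l2, which encodes NRF2, and Tkt, of the pentose phosphate pathway, rose by 0.43 and 0.33 in the first fit only, and neither was called against the controls of days 1 and 28 (0.07 and 0.15).

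**Figure D4:**
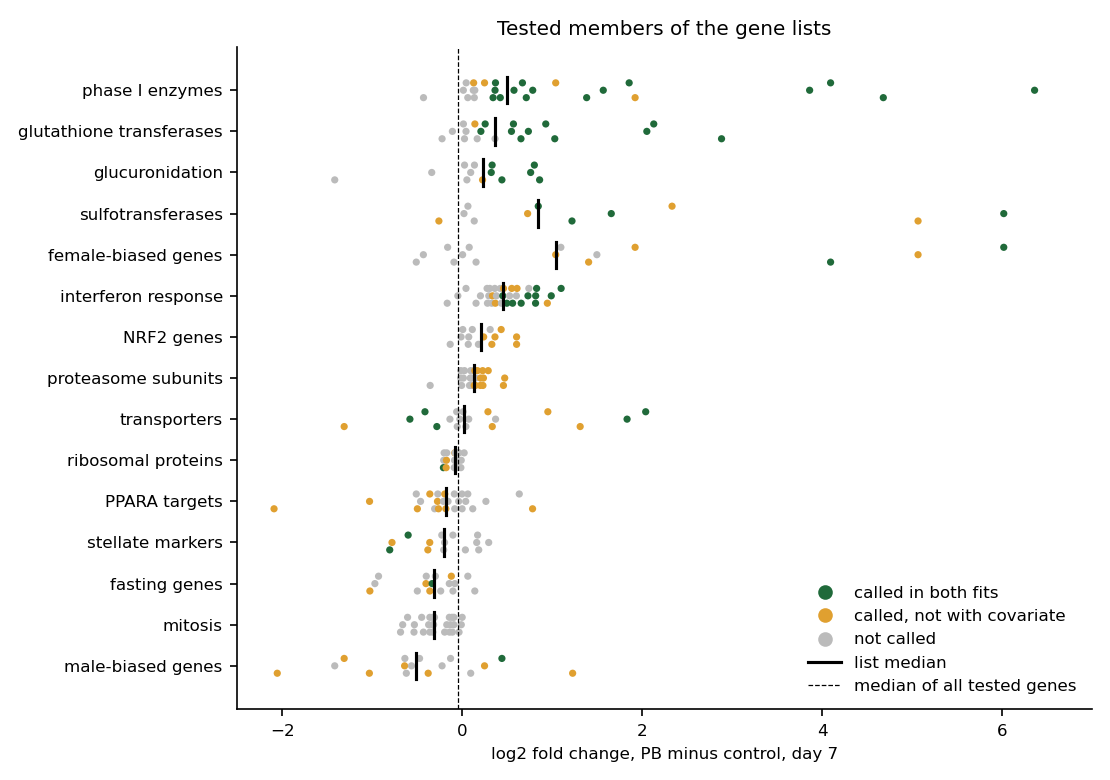
Log2 difference between PB and control arrays at day 7 for each tested member of 15 gene lists, coloured by whether it was called in both fits, only without the covariate, or not. Black bars are list medians in the fit without the covariate, such as 0.50 for the phase I enzymes, and the dashed line is the median of all tested genes (-0.05).

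Genes of cell division, which CAR activators raise in the first days of dosing, were not called higher as a group over the day 7 controls. None of 27 mitosis genes was called in limma, in either fit, while 1 had an unadjusted p under 0.05 without the covariate and 7 with it. In the day 7 arrays alone with the covariate 19 did, beside 1593 of all 12580 tested genes. The differences of the mitosis genes in the first fit ran from -0.69 to 0.00 with a median of -0.32 and array means of 5.54 to 6.81 with PB and 5.91 to 7.23 in controls. That median was -0.61 with the covariate and -0.05 against the controls of days 1 and 28. Mki67, the Ki-67 antigen of cycling cells, had 5.71, 6.19, 7.76, 7.96 and 6.88 with PB and 6.56, 5.90, 7.54, 7.18 and 8.04 in controls, ranges that overlapped almost wholly. Cenpe, a mitotic kinesin, read -0.43 and was not called. Among DNA replication genes 1 of 29 rose and 3 fell, beside 5.64% and 11.4% of all tested genes. In the day 7 arrays alone with the covariate 11 of them had an unadjusted p under 0.05 in limma. Against the controls of days 1 and 28, 11 of the 29 rose and 1 fell (median 0.22). Of all 12580 tested genes 2406 rose and 3052 fell in that comparison. Mcm10, which loads the replication machinery, had 8.94 to 10.08 with PB and 10.25 to 10.52 in controls and fell by 0.97, in the first fit only. Rfc5, a subunit of the clamp loader, fell by 0.40 in the first fit and by 0.51 with the covariate, yet read -0.04 against the controls of days 1 and 28.

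In the growth arrest and p53 list 2 of 19 rose and 1 fell. Gadd45b, a stress sensor and an early CAR-dependent gene in mouse liver, had 7.73, 8.38, 8.18, 8.96 and 8.64 with PB and 7.18, 7.23, 7.04, 7.22 and 7.27 in controls, with no overlap (1.19 ± 0.21, adjusted p = 0.00014; 0.96 and 0.0457 with the covariate). Btg2, an antiproliferative p53 target, fell by 0.77 in the first fit only. Cdkn1a, which encodes the inhibitor p21, had 7.96 to 8.82 with PB and 8.21 to 10.38 in controls and was not called (-0.73, adjusted p = 0.0802).

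The pericentral hepatocyte program, which beta-catenin maintains around the central vein, split. Of 18 tested Wnt target and pericentral genes 2 rose, Gstm3 and Cyp1a2 (0.58, and 0.27 against the controls of days 1 and 28), both of which also metabolise drugs, and 5 fell. Notum, a secreted Wnt inhibitor, had 7.88, 7.90, 7.85, 8.49 and 8.19 with PB, against 8.97, 8.99, 9.02, 8.72 and 9.0 in controls (-0.88, adjusted p = 9.13e-06). Oat, an ornithine aminotransferase, fell by 0.40 and Glul, glutamine synthetase, by 0.27, neither called with the covariate (adjusted p = 0.0777 and 0.0722). The other two were named after their values were seen: Slc1a2, a glutamate transporter, fell by 0.68, and Lgr5, a Wnt coreceptor, by 0.61, both called in both fits. Ctnnb1, beta-catenin itself, read 12.52 ± 0.04 with PB and 12.56 ± 0.12 in controls and was not called. None of 15 urea cycle and periportal genes was called in limma, and 2 had an unadjusted p under 0.05.

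Sex-dependent genes were spread widely within the PB group. Of 15 female-biased genes 6 rose and none fell, with a median of 1.04 in the first fit, 0.62 with the covariate and 0.63 without PB array 3. Of 16 male-biased genes 3 rose and 5 fell, with a median of -0.52 in the first fit and -0.29 with the covariate. With the covariate 2 female-biased genes rose, and 1 male-biased gene rose and none fell. Sult2a2, a hydroxysteroid sulfotransferase, had 5.22, 5.39, 13.27, 13.34 and 12.14 with PB, against 4.27, 4.42, 6.09, 4.42 and 4.83 in controls. Hsd3b5, a male-specific steroid reductase, had 13.16, 12.87, 8.84, 8.51 and 10.19 with PB and 13.12, 13.19, 12.52, 12.38 and 12.64 in controls. PB arrays 3, 4 and 5 were high for the first and low for the second, while PB arrays 1 and 2 lay near the controls for both. Neither was called with the covariate (adjusted p = 0.0699 for Sult2a2 and 0.167 for Hsd3b5). Hsd3b5 and Cyp2b9 were chosen after their values were seen. Cyp2b9, a female-predominant P450, had 9.87 to 12.10 with PB and 6.92 to 10.93 in controls, and was not called with the covariate (adjusted p = 0.515). Of the male-biased list, Susd4 fell by 1.03, and Ugt2b1, a male-biased glucuronosyltransferase, rose by 0.44. Susd4 was not called with the covariate (adjusted p = 0.0872), and Ugt2b1 read 0.11 against the controls of days 1 and 28. The mean of the male-biased list was 11.83, 11.58, 10.41, 10.33 and 10.82 on the PB arrays and 11.10 to 11.86 on the control arrays.

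Growth hormone and IGF axis genes had 3 of 16 lower and none higher, while 11.4% of all tested genes fell. Igfbp2, an IGF-binding protein, had 11.87, 11.54, 11.47, 12.68 and 12.54 with PB and 12.65 to 13.07 in controls, and it fell by 0.80 in the first fit and by 0.98 with the covariate. Igfals and Igf1, parts of the circulating IGF complex, fell by 0.53 and 0.21 in the first fit only, and read 0.10 and 0.00 against the controls of days 1 and 28.

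Gluconeogenesis and fasting genes fell in 5 of 16 cases and rose in none, with a median of -0.32, and 2 fell with the covariate. Foxo1, a transcription factor of gluconeogenesis, had 8.76 to 9.01 with PB and 9.0 to 9.47 in controls. It fell by 0.33 in the first fit and by 0.58 with the covariate. Fgf21, a fasting hormone, had 6.50, 6.16, 5.57, 5.89 and 6.22 with PB, against 6.90, 6.48, 7.48, 6.52 and 8.09 in controls, and fell 2.04-fold in the first fit (adjusted p = 0.0441). Foxo3 fell by 0.40 and Fbp1, a gluconeogenic phosphatase, by 0.12, neither called with the covariate (adjusted p = 0.0595 and 0.443). PPARA targets and fatty acid oxidation genes fell in 8 of 25 cases and rose in 1, with none called with the covariate, where 2 had an unadjusted p under 0.05 in limma. Cyp4a14, a fatty acid hydroxylase named after its values were seen, had 6.93, 8.0, 6.93, 9.95 and 10.75 with PB and 10.33 to 11.07 in controls. Hadha, a mitochondrial oxidation enzyme, fell by 0.50 but read -0.04 with the covariate and 0.18 against the controls of days 1 and 28.

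In glycolysis and glycogen 3 of 13 rose and 2 fell. Ldha, lactate dehydrogenase A, had 12.69, 12.88, 12.74, 12.71 and 12.72 with PB, against 13.13, 13.17, 13.14, 13.38 and 13.27 in controls, and fell by 0.47 in the first fit (adjusted p = 9.69e-09) and by 0.44 with the covariate (adjusted p = 1.11e-04). Against the controls of days 1 and 28 it read -0.25. Fatty acid synthesis had 4 of 23 higher and 3 lower. Thrsp, a lipogenic and thyroid-responsive gene, rose by 0.76 in the first fit and by 0.88 with the covariate, and Elovl6, which elongates fatty acids, by 0.72 in the first fit only. Cholesterol synthesis had 1 of 16 called, and bile acid synthesis had 2 of 12 higher and 1 lower with none called with the covariate (4 at an unadjusted p under 0.05 in limma). Among apolipoproteins 2 of 19 rose and 5 fell, with Apoa4 up by 0.55 and Apoc4 down by 0.15. Cbs, which starts the path from homocysteine to cysteine, had 11.43 ± 0.09 with PB and 11.90 ± 0.14 in controls, and its list of taurine, cysteine and methionine genes had 1 of 17 higher and 5 lower.

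Thyroid hormone handling had 4 of 10 tested genes higher and 3 lower. Dio1, the deiodinase that activates thyroxine, had 10.93, 10.79, 11.26, 11.40 and 11.44 with PB, against 10.27, 10.76, 10.44, 10.68 and 10.39 in controls, and rose by 0.66 in the first fit (1.58-fold) and by 0.76 with the covariate. Ttc39b rose by 0.62 in the first fit, was not called with the covariate (adjusted p = 0.0829), and read 0.05 against the controls of days 1 and 28. Among 15 retinoid genes 5 rose and 2 fell. Rarres1, a retinoid-responsive gene, had 12.41, 12.38, 12.25, 12.33 and 12.34 with PB and 11.39, 11.29, 11.00, 11.08 and 11.44 in controls (1.10 ± 0.10, adjusted p = 2.83e-10). Cyp26a1, which degrades retinoic acid, had 9.55 to 11.56 with PB, and in controls 11.02 on array 4 and 7.45 to 8.22 on the others. Its rise of 1.95 was called in the first fit only.

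Unfolded protein response genes had 4 of 24 lower and none higher, while 11.4% of all tested genes fell. None was called with the covariate, where 2 had an unadjusted p under 0.05 in limma. Asns, asparagine synthetase, fell by 0.81, Chac1, which degrades glutathione, by 0.93 and Dnajb11, a chaperone, by 0.37. The fall of Asns was not seen against the controls of days 1 and 28, where it read -8.24e-04 (adjusted p = 0.998). Of metal handling genes Tfrc, the transferrin receptor, rose by 0.82 at its brightest probe set, while its other 2 probe sets read 0.20 and -0.12. That rise was 0.33 and not called against the controls of days 1 and 28. Among 33 subunits of oxidative phosphorylation 2 rose and 1 fell.

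The series belongs to a study of 5-hydroxymethylcytosine, an oxidised form of methylated DNA, so the enzymes that write and oxidise DNA methylation were read too. Of 14 tested genes 3 rose, Gadd45b among them with Idh1 (0.26) and Idh2 (0.41), which make the alpha-ketoglutarate that TET enzymes need, and 1 fell. Dnmt3a, a de novo methyltransferase, had 8.12, 8.01, 7.97, 7.85 and 7.99 with PB, against 8.30, 8.44, 8.43, 8.28 and 8.68 in controls (-0.44, adjusted p = 0.00114; -0.64 with the covariate). Against the controls of days 1 and 28 it read -0.25. Its 5 probe sets read -0.44, -0.37, -0.25, -0.27 and 0.02. Tet2 and Tet3, which oxidise methylcytosine, differed by -0.08 and 0.05, and Dnmt1, the maintenance enzyme, by -0.02, and none of them was called. Meg3 and Rian, noncoding RNAs of the imprinted Dlk1-Dio3 cluster, were not called either. Meg3 had 7.89 to 8.91 with PB and 7.83 to 8.32 in controls (0.28), and Rian had 4.29 to 5.76 with PB and 4.85 to 5.35 in controls (-0.07), although 1 of 4 Rian probe sets read 0.72.

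Some markers of stellate and endothelial cells were lower with PB. In bulk liver, fewer cells of a type and less RNA per cell cannot be told apart. Stellate cell and collagen markers had 5 of 14 lower and none higher in the first fit, and their mean was 9.23 to 9.42 on PB arrays and 9.42 to 9.70 on control arrays (exact permutation test, adjusted p = 0.0357). With the covariate 2 fell. Against the controls of days 1 and 28, 4 rose and 5 fell, beside 2406 and 3052 of all 12580 tested genes. Reln, a matrix protein of stellate cells, had 10.15, 10.02, 10.01, 10.09 and 10.05 with PB and 10.40, 10.84, 10.81, 10.44 and 10.83 in controls, although its second probe set read -0.02. Hand2, a stellate cell transcription factor, fell by 0.81, and Lrat, which stores retinol as esters, by 0.78, Lrat in the first fit only. Endothelial markers had 3 of 14 lower, while 11.4% of all tested genes fell. With the covariate 2 of them fell, and 4 fell and 1 rose against the controls of days 1 and 28. Stab2, a scavenger receptor of sinusoids, was down by 0.38 and Cdh5, VE-cadherin, by 0.23. Those 2 genes read -0.18 and -0.03 against the controls of days 1 and 28, Cdh5 not called. None of the 14 Kupffer cell markers was called in limma with all arrays and the day 7 controls, and 1 had an unadjusted p under 0.05. Ighm, the heavy chain of IgM, had 10.43, 10.30, 10.75, 9.94 and 9.53 with PB, against 9.42, 8.23, 8.75, 8.23 and 8.83 in controls (1.49), the only called gene of 7 lymphocyte markers. Mylpf, a light chain of skeletal muscle myosin, had 10.66 and 9.56 on PB arrays 2 and 4, 6.03 to 6.57 on the other PB arrays and 6.2 to 6.62 in controls. It rose by 1.44 in the first fit, was not called with the covariate (adjusted p = 0.252), and read -0.05 without PB arrays 2 and 4. The summed muscle marker level was 8.74 to 13.43 on PB arrays and 8.77 to 8.98 on control arrays, and 3 of 4 tested muscle markers were called without the covariate. Of 6 kidney tubule markers Cdh16 was called, at 0.47.

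Whether the day 7 effect differed from the mean effect of days 1, 28 and 91 was tested in the same fit. For 388 genes (3.08%) the day 7 effect was higher and for 462 (3.67%) lower. With the spike-in covariate 1 gene was higher and 3 were lower, and 2 of the 850 genes were called again: Nebl and Obp2a, the second named after its values were seen. The sign of the difference was kept in 808 of the 850. These counts therefore rest on the fit without the covariate. Among called genes Sult3a1 had the largest positive difference, 3.39, with effects of 3.57, 6.02, 1.70 and 2.60 at days 1, 7, 28 and 91. Cnmd followed the same shape, with 2.16, 3.46, 2.22 and 1.88 (difference 1.38, adjusted p = 1.06e-04; 1.28 and 0.0539 with the covariate). Gsta2 had 1.21, 2.05, 1.19 and 0.30, and Abcc3 had 1.72, 2.04, 0.83 and 0.53. Against the controls of days 1 and 28 the day 7 effect was 3.18 for Cnmd, 0.66 for Gsta2 and 1.51 for Abcc3. For Gsta2 and Abcc3 that lay below the day 1 effect. Among interferon-response genes 12 of 33 had a higher effect at day 7, such as Ifit3 with 0.08, 0.73, 0.23 and -0.03. Prox1, Malat1 and Evi5, with differences of 1.66, 1.17 and 1.18, had day 7 effects of 0.69, 0.63 and 0.54 over the day 7 controls and of -1.12, -0.65 and -0.91 against the controls of days 1 and 28. Their direction at day 7 thus changed with the controls used.

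Several genes had much larger PB effects at days 28 and 91 than at day 7. Nebl, an actin-binding protein, had effects of 0.15, 0.59, 3.58 and 4.33 at days 1, 7, 28 and 91 (difference -2.09, adjusted p = 2.75e-09; -2.33 and 1.69e-06 with the covariate). On the day 7 arrays it stood at 4.41 to 5.29 with PB and 4.16 to 4.48 in controls, near the low end of the intensity range. Rian had -0.42, -0.07, 2.71 and 3.02 (difference -1.84), Meg3 -0.19, 0.28, 2.25 and 3.02 (difference -1.41) and Kcnk1, a potassium channel, 0.64, 0.44, 2.23 and 3.26 (difference -1.60). With each day set against its own controls, Dnaic1 had its deepest fall at day 7, with -0.99, -2.72, -1.66 and -0.02 (difference -1.83). Against the controls of days 1 and 28 its day 7 fall was -1.84, near that of day 28. With the covariate the adjusted p of these 4 differences lay between 0.0539 and 0.259.

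**Figure D5:**
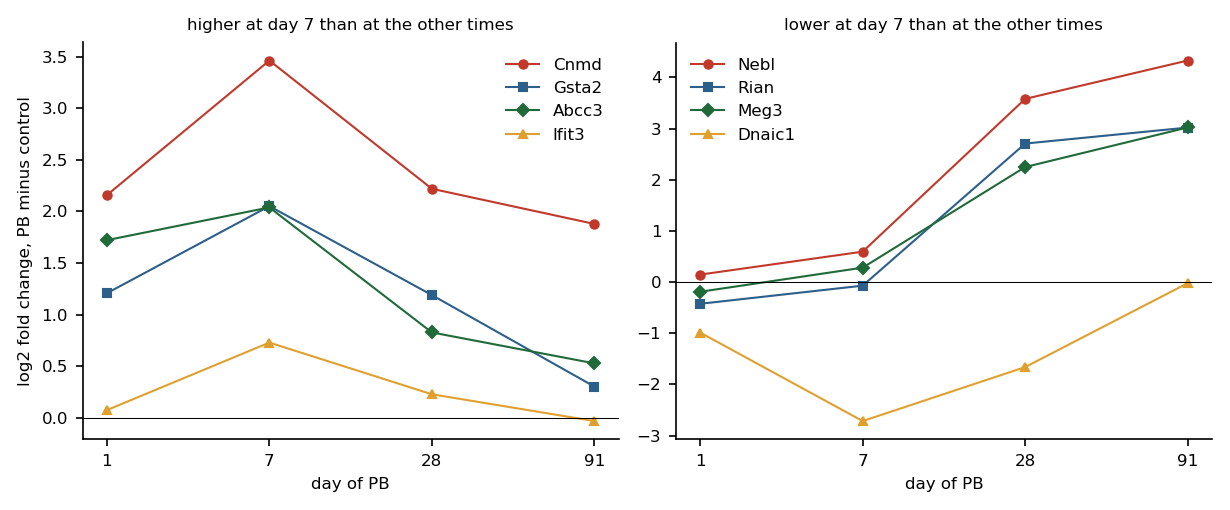
Log2 difference between PB and control arrays after 1, 7, 28 and 91 days for 8 genes whose day 7 effect differed from the mean of the other days in the fit without the covariate. With each day set against its own controls, Cnmd, Gsta2, Abcc3 and Ifit3 (left) peak at day 7. Against the controls of days 1 and 28 the day 7 effects of Gsta2 (0.66) and Abcc3 (1.51) lie below those of day 1. Nebl, Rian and Meg3 (right) lie far lower at days 1 and 7 than at days 28 and 91, and Dnaic1 is lowest at day 7 (-1.84 against the controls of days 1 and 28).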

How the data were processed

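Liver RNA of 39 samples was hybridized to Affymetrix mouse arrays, and GCOS is named in the submitters' processing notes. The deposited values were taken as log2 intensities already normalized between arrays, judged by their range and near-equal array means. The method of background correction, normalization and summarization is not given in the sources used here. Of 45101 probe sets, 34945 carry 1 gene symbol, 932 several and 9160 none, and 64 are controls. Each of 18193 genes was read from its single-symbol probe set with the highest mean, and 12580 genes above the array median on at least 4 arrays were tested. Limma 3.58.1 in R 4.3.3 fitted a mean for each of 8 groups over 39 arrays (eBayes with trend, 31 residual degrees of freedom, Benjamini-Hochberg adjustment). The day 7 effect was also tested against the mean effect of the other days. A second fit added each array's mean of the 18 hybridization controls. For 18 array measures the groups were compared by exact permutation over 252 arrangements in Python 3.11.15, and figures were drawn with matplotlib 3.10.9. The fit was tested on simulated data.

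The groups and 52 gene lists (949 genes, 780 tested) were chosen with earlier results of these data known. Named genes followed a rule: the 12 largest rises and 12 largest falls called in both fits without overlap, the 6 largest of each called only without the covariate, the 6 highest and 6 lowest called differences between days, up to 4 called members of each list by smallest p (2 members where none was called), and a fixed set of genes known from PB studies. Genes outside it are marked in the text. The number of arrays limits the precision. Alternatives covered normalization, covariates, filters, the choice of probe set, the variance model, array weights, the controls used and each array left out.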

Additional observations from a re-analysis of the deposited data

Results flagged for a closer look

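Single arrays lay apart from the other 4 of their group in 16 of 318 groups of 5 values tested, and chance flags about 1 in 20 groups, which is 16 here. PB array 3 was high for the neutrophil marker mean (7.92), the lymphocyte marker mean (6.25), Bst2 (12.06) and Stab2 (9.56) and low for Cyp1a2 (13.42). Among the other PB arrays, array 1 was low for Ifit3 (8.65), array 2 high for Ldha (12.88), array 4 low for Hand2 (6.33) and array 5 high for Apoa4 (12.59). Control array 4 was high for the neutrophil marker mean (6.22), Cyp26a1 (11.02) and Orm3 (7.11) and low for Notum (8.72). Control array 2 was low for Aldh1a7 (12.87) and high for Hectd2os (7.98), and control array 5 was high for Ppara (11.00).

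The day 7 effect differed from the mean effect of days 1, 28 and 91 for 42 named genes in limma without the covariate, and with the covariate this held for Nebl and Obp2a only. It was higher at day 7 for the drug metabolism genes Cyp2c55 (0.86), Cyp2c50 (0.20), Cyp2c29 (0.37), Cyp3a11 (0.23), Ces2a (0.64), Gstt3 (0.76), Gsta2 (1.15), Sult3a1 (3.39), Sult1c2 (0.53), Abcc3 (1.01) and Abcc2 (0.67). The same held for the interferon-response genes Irgm1 (0.48), Ifit3 (0.64), Bst2 (0.32) and Ifit1 (0.86). The drug metabolism genes depended on the controls used. Against the controls of days 1 and 28, the day 7 effect lay below that of another day for Cyp2c55 (3.87), Cyp2c50 (0.65), Cyp2c29 (0.38), Cyp3a11 (0.12), Gsta2 (0.66), Abcc3 (1.51) and Abcc2 (0.06). It stayed above those of days 1, 28 and 91 for Ces2a (1.31), Gstt3 (2.76), Sult3a1 (5.67) and Sult1c2 (1.55). Other genes with a higher effect were Cnmd (1.38), 1700067K01Rik (0.74), Psmd1 (0.40), Prox1 (1.66), Evi5 (1.18), Malat1 (1.17) and Obp2a (1.07). It was lower at day 7 for Nr1i3 (-0.46), Dnaic1 (-1.83), Tcim (-0.68), Atp4a (-0.88), Foxa3 (-0.59), Spata2l (-0.66), Ces4a (-0.91), Igfbp5 (-1.44), Cbs (-0.23), Notum (-0.60), Rfc5 (-0.41) and Ldha (-0.19). It was also lower for Dnajb11 (-0.47), Asns (-1.07), Rps19 (-0.23), Rpl8 (-0.23), Meg3 (-1.41), Rian (-1.84), Nebl (-2.09) and Kcnk1 (-1.60).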

How the results depend on the processing

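Without any 1 of the 10 arrays, 524 to 685 genes rose and 1016 to 1427 fell. Of 141 named genes 128 were called at day 7, 105 of them with every array left out in turn and 11 under all 18 other alternatives. No paired analysis was possible because the labels give no replicate numbers.

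Counts that moved were, for genes higher and lower, 351 and 500 with the spike-in covariate, 10 and 1 with it in the day 7 arrays alone, 2406 and 3052 against the controls of days 1 and 28, 332 and 497 with the covariate and without PB array 3, and 452 and 742 without PB arrays 2 and 4 (the last 2 settings were chosen after seeing the data). Median centring gave 879 lower beside 931 higher. Differences between days were 1 and 3 with the covariate, 73 and 91 with the poly-A covariate, 732 and 857 with array weights, 7 and 11 with the covariate and without PB array 3, 237 and 219 without PB arrays 2 and 4, and 157 to 565 and 202 to 543 with 1 array left out (157 without control array 1). In the day 7 arrays alone with the covariate, 3 phase I enzymes, 2 glutathione transferases, 0 interferon-response genes and 0 proteasome subunits rose (limma). Interferon-response genes numbered 9 in the day 7 arrays alone, 28 against the other controls, and 7 with the covariate without PB array 3. Proteasome subunits numbered 5 in the day 7 arrays alone, 3 with the covariate with or without PB array 3, and 7 when probe sets matching more than 1 transcript were dropped. With 1 array left out the difference was -0.37 to 0.34 for neutrophil markers (below 0 only without PB array 3), -0.25 to 0.11 for Kupffer cell markers, -0.23 to -0.16 for stellate cell markers and -0.20 to -0.13 for endothelial markers, the last 2 losing their adjusted p in most cases. The cause of these moves was not tested.

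Signs turned for the following genes. Against the controls of days 1 and 28 the log2 difference was 0.17 for Spata2l, 0.66 for Igfbp5, 0.17 for Mki67, 0.016 for Cdkn1a, 0.18 for Hadha, -0.17 for Psmd1, 0.10 for Igfals, 0.15 for Dnmt1, -0.10 for Meg3, -1.12 for Prox1, -0.91 for Evi5, -0.65 for Malat1 and -0.56 for Obp2a. In the day 7 arrays alone with the covariate it was 0.10 for Cpox, -0.21 for Ahr, 0.12 for Nab2, 0.34 for Serpina9, -0.023 for Tkt, -0.92 for Cyp2b9, 0.015 for Igfals, 0.31 for Tet2, -0.19 for Prox1 and -0.56 for Evi5. With the spike-in covariate it was 0.056 for Tet2, 0.33 for Rian and -0.20 for Evi5, and without PB array 3 as well 0.014, 0.58 and -0.16. Rian read 0.12 with the male-biased covariate, 0.029 with the poly-A covariate and 0.15 as the mean of its probe sets. Dnmt1 read 0.011 as the mean of its probe sets, 0.018 after quantile normalization, 0.019 after median centring and 0.0043 without PB arrays 2 and 4, where Tet2 read 0.014, Tet3 -0.0071 and Mylpf -0.052. Ctnnb1 read 0.0025 after median centring, and Obp2a -0.00975 with the 3′ to 5′ covariate. With 1 array left out Ctnnb1 ran from -0.073 to 0.0066, Mki67 from -0.43 to 0.15, Tet3 from -0.010 to 0.11, Dnmt1 from -0.088 to 0.040, Rian from -0.24 to 0.12 and Obp2a from -0.055 to 0.19. A 75th percentile filter left no tested gene in some marker lists, which then have no median. Dim probe sets and the unstated normalization limit small differences.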
